A study of Homo sapiens with 32 samples.

Results

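SETD2KO-1 and SETD2KO-2 are separate clones of RPTEC, a human renal proximal tubule epithelial line immortalized with hTERT, in which SETD2 was inactivated by CRISPR/Cas9. Their m6A peak lists were set against each other to measure how far the lists of clones of equal SETD2 status differ. Each clone had 2 immunoprecipitated (IP) libraries, so 4 of the 32 samples and 4 of the 16 libraries with a peak list enter. The other RPTEC lines, read here only for reference, were the SETD2-expressing parent (WT) and SETD2KO-1R, a line made from clone 1 by re-expressing full-length FLAG-tagged SETD2, again with 2 libraries each. The series also holds the same 4 genotypes in the renal carcinoma line 786-O. All cells were cultured without treatment. Each knockout genotype is 1 clone per label, so a clone's own history cannot be told apart from its genotype.

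N6-methyladenosine (m6A) is a base modification of RNA laid down during transcription by a complex with METTL3 as its catalytic subunit. It is typically dense near stop codons and in long internal exons, at sequences with a GGAC core, and reader proteins of the YTH and IGF2BP families bind it. SETD2 is the methyltransferase that trimethylates lysine 36 of histone H3 (H3K36me3) over transcribed genes, and H3K36me3 can guide the m6A writer complex to nascent RNA. In MeRIP-seq an antibody pulls m6A-containing RNA fragments from total RNA, and a peak is a stretch where the IP exceeds the Input.

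SETD2KO-1 replicates 1 and 2 held 24605 and 30614 peaks. SETD2KO-2 replicates 1 and 2 held 26270 and 19249 peaks. The replicates of a clone therefore differed in length of list by more than the clones' means did. Overlapping peaks of the 4 lists were merged into 50229 regions, and a library called a region when one of its peaks touched it. A region was clone-specific when both libraries of one clone and neither library of the other called it. There were 2408 regions specific to SETD2KO-1 (4.79% of the merged regions, Wilson 95% interval 4.61% to 4.98%) and 991 specific to SETD2KO-2 (1.97%, 1.85% to 2.10%). The intervals cover counting only. Of the rest, 24982 regions (49.7%) were called in 1 library, and 7578 (15.1%) were common to all 4.

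**Figure D1:**
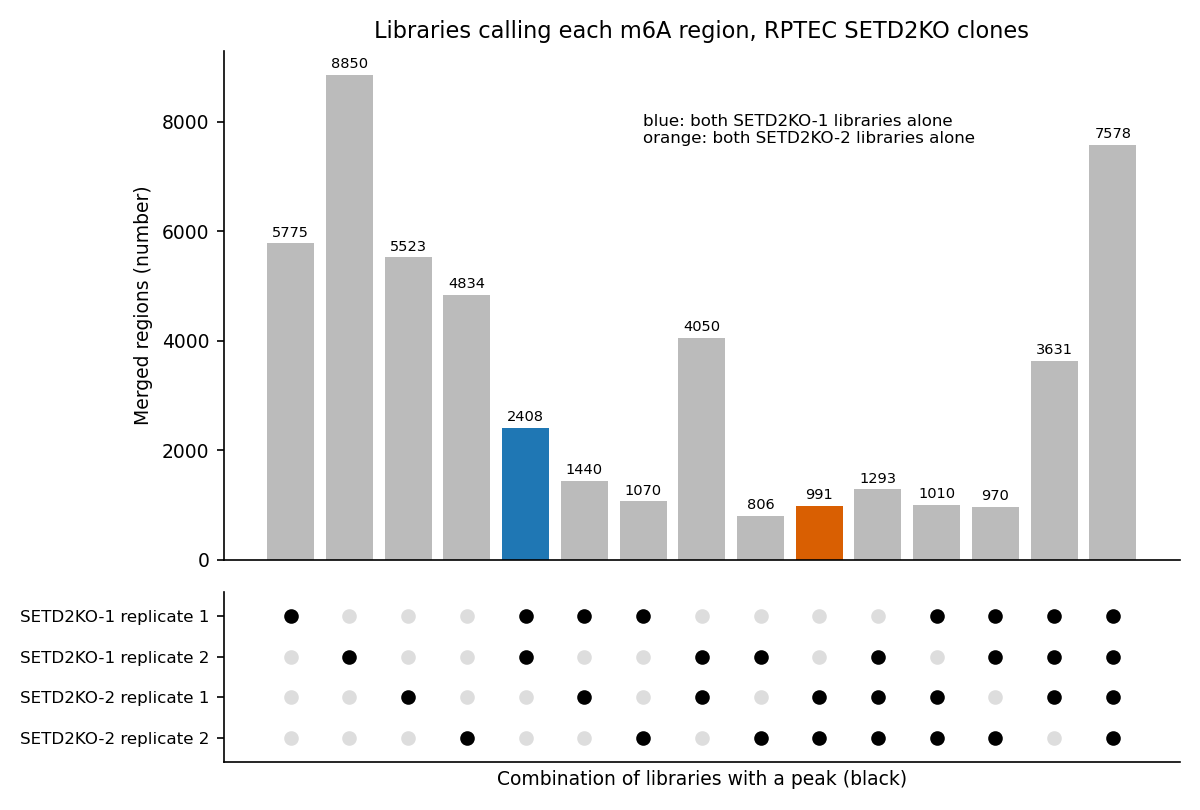
Number of merged m6A regions (vertical axis) for each combination of the 4 SETD2KO libraries that called them (black dots below the bar). The 2408 regions of SETD2KO-1 alone (blue) and the 991 of SETD2KO-2 alone (orange) stand beside 4050 regions shared by SETD2KO-1 replicate 2 and SETD2KO-2 replicate 1 alone.

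Clone membership was not the main split among these 4 libraries. The most frequent pair was SETD2KO-1 replicate 2 with SETD2KO-2 replicate 1, which shared 4050 regions that neither other library called. The remaining pairs across clones shared 1440, 1070 and 806 regions. Of the 10765 regions called in exactly 2 libraries, 31.6% belonged to libraries of the same clone. By the Jaccard index over base pairs, the replicates overlapped by 0.331 in SETD2KO-1 and 0.285 in SETD2KO-2. The 4 pairs across clones ran from 0.242 to 0.385, with a mean of 0.317 ± 0.0623 (SD over the 4 pairs, which share libraries), against 0.308 within clones. Pairs within a clone thus fell inside the range of pairs across clones.

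The clones' lists also differed in the shortest peak they hold. It was 269 and 233 bp in SETD2KO-1 and 276 bp in both SETD2KO-2 libraries. Peaks below 276 bp made up 8.08% and 26.2% of the SETD2KO-1 lists and 0% of the SETD2KO-2 lists. Of the regions specific to SETD2KO-1, 965 (40.1%) had no peak of 276 bp or more in at least one of its libraries. When peaks under 276 bp were dropped, a setting chosen after seeing the data, 1444 regions were specific to SETD2KO-1 and 1257 to SETD2KO-2. When each list was cut to its 19249 highest-scoring peaks, the counts were 1366 and 1006. The excess of SETD2KO-1 over SETD2KO-2 shrank in both settings while its direction stayed.

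The letters at transcript starts could be read for some regions. Start windows were taken as the first 50 transcribed bases of RefSeq promoter entries of protein-coding genes (GRCh38.p14), and each was searched on the strand of the gene only for GGACT, the DNA spelling of the commonest m6A motif. A specific region covered the whole window at 56 starts for SETD2KO-1, of which 3 held GGACT (5.36%, Wilson 95% interval 1.84% to 14.6%), and at 38 starts for SETD2KO-2, of which 1 did (2.63%, 0.466% to 13.5%). The share was 4.98% of 623 starts in common regions and 4.87% of all 22199 start windows. All 4 matches in clone-specific regions are shown, since they are the windows there that hold the motif, 30 bases each, 5′ to 3′ on the strand of the gene, with GGACT in capitals.

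EPHA2, region specific to SETD2KO-1, chr1:16156040-16156069, minus strand: attaaGGACTcggggcaggaggggcagaag

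CDKN2B, region specific to SETD2KO-1, chr9:22009260-22009289, minus strand: gcggggcagtgaGGACTccgcgacgcgtcc

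EMX2, region specific to SETD2KO-1, chr10:117542766-117542795, plus strand: aacacttccatggattgtccttGGACTtag

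PHKB, region specific to SETD2KO-2, chr16:47461351-47461380, plus strand: atggcgggggcggcgGGACTcacggcagaa

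A match is a run of letters and not a mapped methylated base. EPHA2 encodes an ephrin receptor tyrosine kinase, EMX2 a homeobox factor of the developing urogenital tract, and PHKB a regulatory subunit of phosphorylase kinase. CDKN2B encodes the cyclin-dependent kinase inhibitor p15, and the region over its start belongs to a long stretch of chromosome 9 in which the clones differed. The EPHA2, CDKN2B, PHKB and EMX2 regions stood at mean percentile ranks of 85.7, 83.1, 64.1 and 38.3, where 100 is the highest score of a list. EPHA2, EMX2 and PHKB were chosen by the match, after their values were seen.

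The stretch with the most specific regions lay on the short arm of chromosome 9. SETD2KO-2 had 0 peaks in both libraries over 1033 kb (chr9:21334508-22367437, hg38). SETD2KO-1 had 30 and 25 peaks there, WT 27 and 28, and SETD2KO-1R 28 and 25. The 8 libraries of 786-O had 11 to 23. The gap holds 16 regions specific to SETD2KO-1, in a span of 545 kb that runs over IFNE, an epithelial interferon, MTAP, which salvages methionine from methylthioadenosine, and CDKN2A and CDKN2B, which encode the inhibitors p16, p14ARF and p15. The stretch was chosen after its values were seen.

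**Figure D2:**
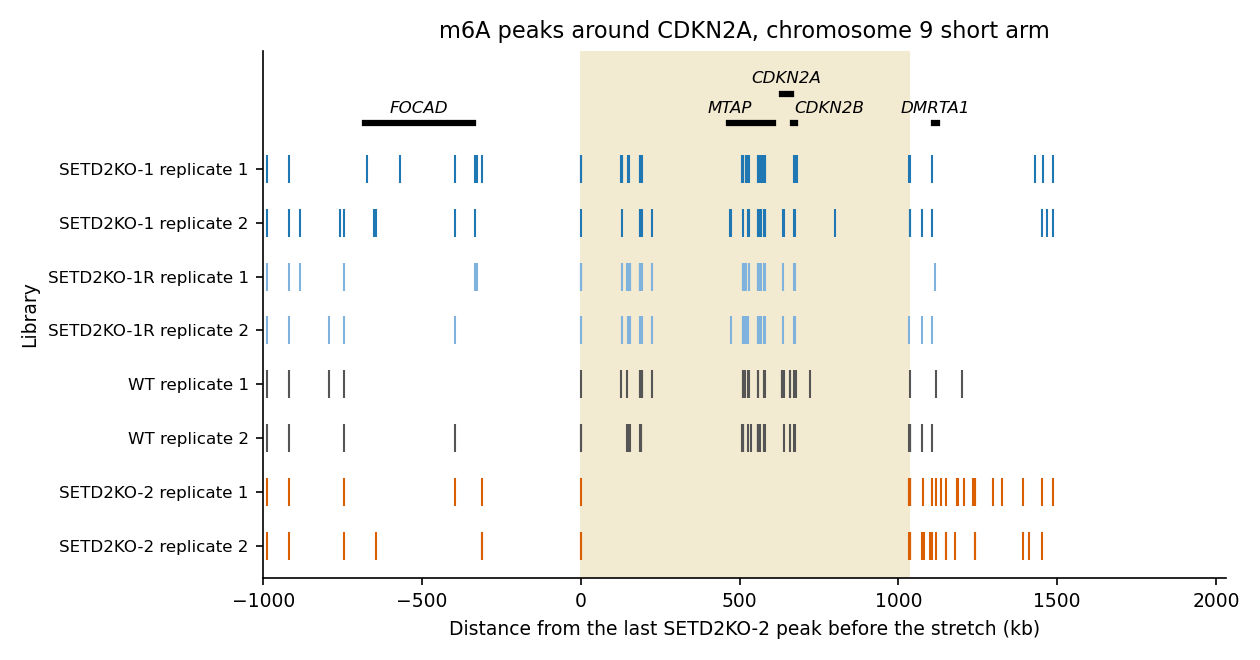
Midpoints of m6A peaks (ticks) by library against the distance in kb from the last SETD2KO-2 peak before the gap, with gene bodies as black bars and the 1033-kb gap shaded. Both SETD2KO-2 libraries have 0 peaks in the shaded part, where the other 6 have 25 to 30, and 21 and 17 in the 1000 kb after it.

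MTAP had 15 and 13 peaks in SETD2KO-1 and 0 in both SETD2KO-2 libraries. WT had 10 and 16, SETD2KO-1R 13 and 14. All 8 786-O libraries also called it. With 8 specific regions among 18, MTAP held the most specific regions of any gene. CDKN2B had 2 peaks in each SETD2KO-1, WT and SETD2KO-1R library and 0 in SETD2KO-2. CDKN2A had 0 and 2 peaks in SETD2KO-1, 0 and 0 in SETD2KO-2, 5 and 2 in WT, and 1 and 1 in SETD2KO-1R, so it did not meet the rule for a gene called in one clone alone. CDKN2A and CDKN2B had 0 peaks in all 8 786-O libraries.

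The flanks were counted as well. In the 1000 kb before the gap the 8 RPTEC libraries had 5 to 10 peaks, and the SETD2KO-2 libraries, with 6 and 8, lay within that range. In the 1000 kb after the gap SETD2KO-2 had 21 and 17 peaks, against 6 and 7 in SETD2KO-1, 3 and 6 in WT and 1 and 3 in SETD2KO-1R. Within that flank, 5 regions specific to SETD2KO-2 followed each other over 276 kb from DMRTA1, a doublesex-related transcription factor gene (chr9:22451234-22727410). No peak of SETD2KO-1 lay among them. A missing peak can mean less RNA, less m6A per RNA, a peak under the calling threshold or, in a bulk sample, fewer cells with the RNA, and these cannot be told apart in peak lists. The DNA of the clones was not measured here, so its part in the gap was not tested.

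By whole chromosomes the clones did not separate. The share of a list's peaks on each of 23 chromosomes was compared with limma, and 0 chromosomes passed an adjusted p of 0.05 in either direction (0% called each way). At an unadjusted p under 0.05 there were also 0. Chromosome 18 was the nearest, with 1.67% and 1.57% of peaks in SETD2KO-1 against 1.52% and 1.44% in SETD2KO-2 (log2 difference 0.13, SE 0.05, limma adjusted p = 0.918). The share of regions specific to SETD2KO-1 ran from 3.90% on chromosome 17 to 5.90% on chromosome 22. For SETD2KO-2 it ran from 1.30% on chromosome 20 to 2.53% on chromosome 3. Chromosome X held 4.19% and 3.82% of peaks in SETD2KO-1 and 3.57% and 3.79% in SETD2KO-2. In WT it held 2.64% and 2.37%, and in SETD2KO-1R 2.42% and 2.43%, so the clones resembled each other there more than they resembled the lines that express SETD2.

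Of 300 windows of 10 Mb, 1 was higher in SETD2KO-1 (0.333% called) and 0 were higher in SETD2KO-2 (0% called, and 4 windows in all had an unadjusted p under 0.05). The window was chromosome 13 from 10 to 20 Mb, with 20 and 17 peaks in SETD2KO-1 against 8 and 4 in SETD2KO-2 (log2 difference in share 1.25, SE 0.22, limma adjusted p = 0.0479). Its call was lost without SETD2KO-1 replicate 1 (adjusted p = 0.966), without SETD2KO-1 replicate 2 (adjusted p = 0.0830) and with a pseudocount of 5 (adjusted p = 0.211). The window of the chromosome 9 gap, 20 to 30 Mb, had 52 and 48 peaks against 31 and 30 and was not called (log2 difference 0.41, SE 0.21, limma adjusted p = 0.994).

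Most clone-specific regions lay in genes that the other clone also called somewhere. Of the regions specific to SETD2KO-1, 84.6% overlapped a protein-coding gene, and 86.2% of those lay in a gene with a peak in at least 1 SETD2KO-2 library. For SETD2KO-2 the values were 79.4% and 87.2%. Common regions overlapped a protein-coding gene in 90.2% of cases. Regions outside any gene made up 7.77% and 12.4% of the specific sets and 4.34% of the common set. The median length was 431 and 474 bp in the specific sets and 771 bp in the common set. Over all merged regions 85.4% overlapped a protein-coding gene, 7.52% lay outside any gene and the median length was 409 bp, so the SETD2KO-1 set lay near the level of all regions.

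Along genes with a known strand, 21.9% of regions specific to SETD2KO-1 and 17.4% of those specific to SETD2KO-2 lay in the last 10% of the gene body. The share was 30.7% of common regions and 18.4% of all merged regions. The first 10% held 7.64%, 10.5% and 9.36% of the specific sets and the common set in the same order, and 12.7% of all merged regions. The 3′ crowding that is typical of m6A was thus weaker in the specific sets than in the common one, and SETD2KO-2 stood at the level of all merged regions.

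By score the clone-specific regions stood low in their own lists. The mean percentile rank in the 2 libraries that called them had a median of 40.7 in SETD2KO-1 and 36.9 in SETD2KO-2. It was 66.1 and 65.5 for common regions and 32.0 and 31.4 for regions of 1 library alone. This order was set in part by the rule, since low-scoring peaks are the more easily missed in another library. A region also took the highest rank of its peaks in a library, and common regions were longer. Among regions called in both libraries of a clone, those that 1 library of the other clone also called, just outside the rule, had medians of 52.6 and 48.5. A mean rank over 90 was reached by 198 regions of SETD2KO-1 (8.22%) and 32 of SETD2KO-2 (3.23%).

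The highest-ranked specific regions of SETD2KO-1 included those in RANGAP1 and HSP90AA1, for the GTPase activator of nuclear transport and an HSP90 chaperone, in EDF1 and SRRM1, for a translation-linked cofactor and a splicing matrix protein, and in CTNNA1, SRP14 and OPTN, for alpha-catenin, a signal recognition particle subunit and an autophagy receptor. The mean ranks of these 7 regions were 99.6 or higher. Each had only peaks of 248 to 275 bp in at least one SETD2KO-1 library, and 0 of the 7 stayed specific when peaks under 276 bp were dropped. The nearest SETD2KO-2 peak was 690 to 2328 bp away. The 7 were called in 3 to 6 of the 8 786-O libraries, so the regions themselves recur outside SETD2KO-1.

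In SETD2KO-2 the 8 highest were in PNN, NRDC, RPL32, EXT1, DST, GFRA1, PPP2R2C and GOLGA6L10. PNN encodes the splicing-linked protein pinin, NRDC a metalloendopeptidase, RPL32 a ribosomal protein, EXT1 a heparan sulfate polymerase, DST a cytoskeletal linker, GFRA1 the GDNF co-receptor and PPP2R2C a phosphatase subunit. GOLGA6L10 belongs to a family of near-identical copies, so its peak is uncertain in place. Each library's longest peak there was 289 bp or longer. All 8 stayed specific under the length limit, but the SETD2KO-2 lists hold 0 peaks under 276 bp. The limit therefore could not remove these regions and does not test them. The PNN and EXT1 regions were also called in both WT libraries and in all 8 786-O libraries. In NRDC, RPL32 and PPP2R2C the nearest SETD2KO-1 peak was 37706 to 66619 bp away, and for the other 5 regions it was 208 bp (EXT1) to 2266 bp (GFRA1) away.

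At the gene level, 380 protein-coding genes had a peak in both SETD2KO-1 and neither SETD2KO-2 library (3.38% of the 11254 with any peak), and 160 the reverse (1.42%). Of the 380, 218 had 1 peak per library, and of the 160, 109 did. A specific region lay in 1800 genes for SETD2KO-1 (16.0%) and 759 for SETD2KO-2 (6.74%). Genes with 3 or more specific regions were fewer, 57 and 8. With peaks of 276 bp or more the genes called in one clone alone numbered 234 and 248, so the direction of that excess turned. With equal list lengths they numbered 274 and 252.

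**Figure D3:**
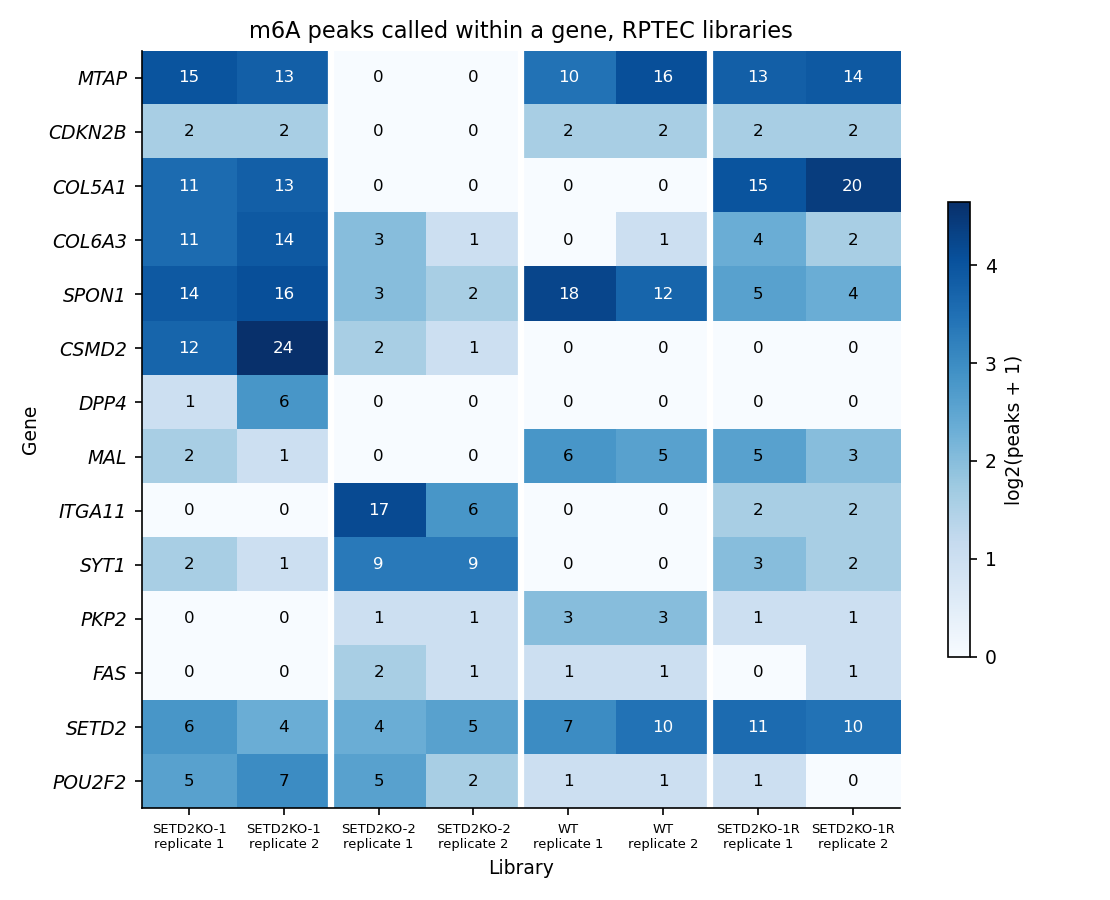
Peaks called within each gene body (number in the cell, shade on a log2(peaks + 1) scale) in the 8 RPTEC libraries. MTAP and CDKN2B are at 0 in SETD2KO-2 alone, COL5A1 is at 0 in SETD2KO-2 and WT, and ITGA11 is at 0 in SETD2KO-1 and WT.

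After MTAP, the genes with the most specific regions of SETD2KO-1 were COL5A1, SPON1 and CSMD2, with 7 each. COL5A1, for the collagen V alpha chain that sets fibril width, had 11 and 13 peaks in SETD2KO-1 and 0 in both SETD2KO-2 libraries. It had 0 in both WT libraries and 15 and 20 in SETD2KO-1R. Its calls therefore followed the SETD2KO-1 lineage, with and without SETD2. SPON1, for the matrix protein spondin, had 14 and 16 peaks against 3 and 2 in SETD2KO-2, 18 and 12 in WT, and 5 and 4 in SETD2KO-1R. Here the parent resembled SETD2KO-1, and the rescued line lay near SETD2KO-2.

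CSMD2, a large transmembrane protein with CUB and sushi domains, had 12 and 24 peaks in SETD2KO-1 and 2 and 1 in SETD2KO-2. It had 0 in WT, in SETD2KO-1R and in all 786-O libraries. CDH13, a GPI-anchored cadherin, and MICAL3, an actin-oxidizing monooxygenase, each held 6 specific regions of SETD2KO-1. Both were called in every RPTEC library, CDH13 with 42 and 51 against 39 and 27 peaks and MICAL3 with 21 and 25 against 19 and 14. The latter genes show specific regions within transcripts that both clones called many times.

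In SETD2KO-2 the leading genes were ITGA11, SYT1 and NXN. ITGA11, the collagen-binding integrin alpha chain, had 17 and 6 peaks in SETD2KO-2 and 0 in SETD2KO-1, 0 in WT, 2 and 2 in SETD2KO-1R and 0 in 786-O. SYT1, the calcium sensor synaptotagmin, had 9 and 9 peaks against 2 and 1, with 0 in WT and 3 and 2 in SETD2KO-1R. NXN, for the redox protein nucleoredoxin, held the most specific regions, 5 of 47, but was called throughout, with 20 and 35 peaks against 16 and 17.

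SREBF2, a sterol regulator, had 11 and 10 peaks in SETD2KO-2 against 4 and 7 in SETD2KO-1. OSBPL3, an oxysterol-binding protein, had 7 and 3 against 2 and 2, and the RNA-binding gene RBMS3 had 12 and 19 against 15 and 11. Each held 3 specific regions of SETD2KO-2. These counts restate in part how the genes were chosen.

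Specific regions of both clones lay in 167 genes. CDH13 had 6 of SETD2KO-1 and 1 of SETD2KO-2, DENND2A, a Rab exchange factor, 3 and 2, RBMS3 2 and 3, and WDR70, a WD-repeat protein of DNA repair, 4 and 1. In these 4 genes the clones differed in which part of the transcript was called, not in whether it was.

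Long runs of specific regions were found elsewhere, and these were also chosen after their values were seen. SETD2KO-2 had 0 peaks over 1608 kb around FBXL7, an F-box gene, where SETD2KO-1 had 7 and 7. WT had 0 and 0, SETD2KO-1R 1 and 1, and the 786-O libraries 6 to 14. In an intergenic part of chromosome 5 (chr5:125163453-125732866), SETD2KO-1 had 6 specific regions, with 28 and 9 peaks in a 1647-kb gap of SETD2KO-2, 0 in WT and 6 and 5 in SETD2KO-1R. The reverse was seen around NKX2-6, a homeobox gene on chromosome 8, with 14 and 7 peaks in SETD2KO-2, 0 in SETD2KO-1, 0 and 1 in WT and 0 in SETD2KO-1R.

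Peaks of SETD2 and of the genes the study followed in RPTEC came next. SETD2 had 6 and 4 peaks in SETD2KO-1 and 4 and 5 in SETD2KO-2, below the 7 and 10 of WT and the 11 and 10 of SETD2KO-1R. Both clones still gave peaks in the gene, so the lists do not check the knockout, and the ranges of the clones overlapped. METTL3 had 0 peaks in all 4 SETD2KO libraries and in both WT libraries, and 1 and 0 in SETD2KO-1R. MAL, a lipid raft protein of epithelial apical transport, had 2 and 1 peaks in SETD2KO-1 and 0 in SETD2KO-2, against 6 and 5 in WT and 5 and 3 in SETD2KO-1R. POU2F2, an octamer-binding factor, had 5 and 7 in SETD2KO-1 and 5 and 2 in SETD2KO-2, with 0 or 1 in each library of WT and SETD2KO-1R.

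Of 17 gene lists, 16 are reported here, beside the 4.75% and 1.84% of all regions in protein-coding genes that were specific to SETD2KO-1 and SETD2KO-2. The lists were chosen with earlier results of these data known, so a list's rank among them is a description and not independent support. The mesenchymal list had the largest share for SETD2KO-1 among the lists with at least 50 regions. Of its 231 regions, 31 were specific to SETD2KO-1 (13.4%) and 1 to SETD2KO-2 (0.433%). They lay in 16 of the 31 members with a peak. COL5A1 held 7, COL6A3 5, the repressor of epithelial genes ZEB1 5 and TWIST2 2, while 12 members held 1 each, VIM, CDH2, THBS1 and COL1A1 among them. COL6A3, for the collagen VI alpha chain, had 11 and 14 peaks in SETD2KO-1, 3 and 1 in SETD2KO-2, 0 and 1 in WT and 4 and 2 in SETD2KO-1R. Members other than COL5A1 and FSTL1 are named after their values were seen. In FSTL1, a secreted follistatin-like protein, there were 2 and 3 peaks against 0 and 0.

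ZEB1 had 19 and 19 peaks against 13 and 13, with 13 and 11 in WT and 18 and 19 in SETD2KO-1R. Over the whole list there were 140 and 174 peaks in SETD2KO-1, 107 and 84 in SETD2KO-2, 100 and 73 in WT, and 149 and 148 in SETD2KO-1R. Members with any peak numbered 28 and 29 in SETD2KO-1 and 28 and 25 in SETD2KO-2, so nearly the same number of members was called in each clone. The list's counts were 24 and 1 of 201 regions with equal list lengths (11.9% and 0.498%), beside 3.55% and 2.38% of all regions in protein-coding genes. With peaks of 276 bp or more they were 19 and 4 of 203 (9.36% and 1.97%), beside 3.18% and 2.62% of all regions. The direction held in both, and the part of peak length and list length in the rest was not tested beyond these settings.

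**Figure D4:**
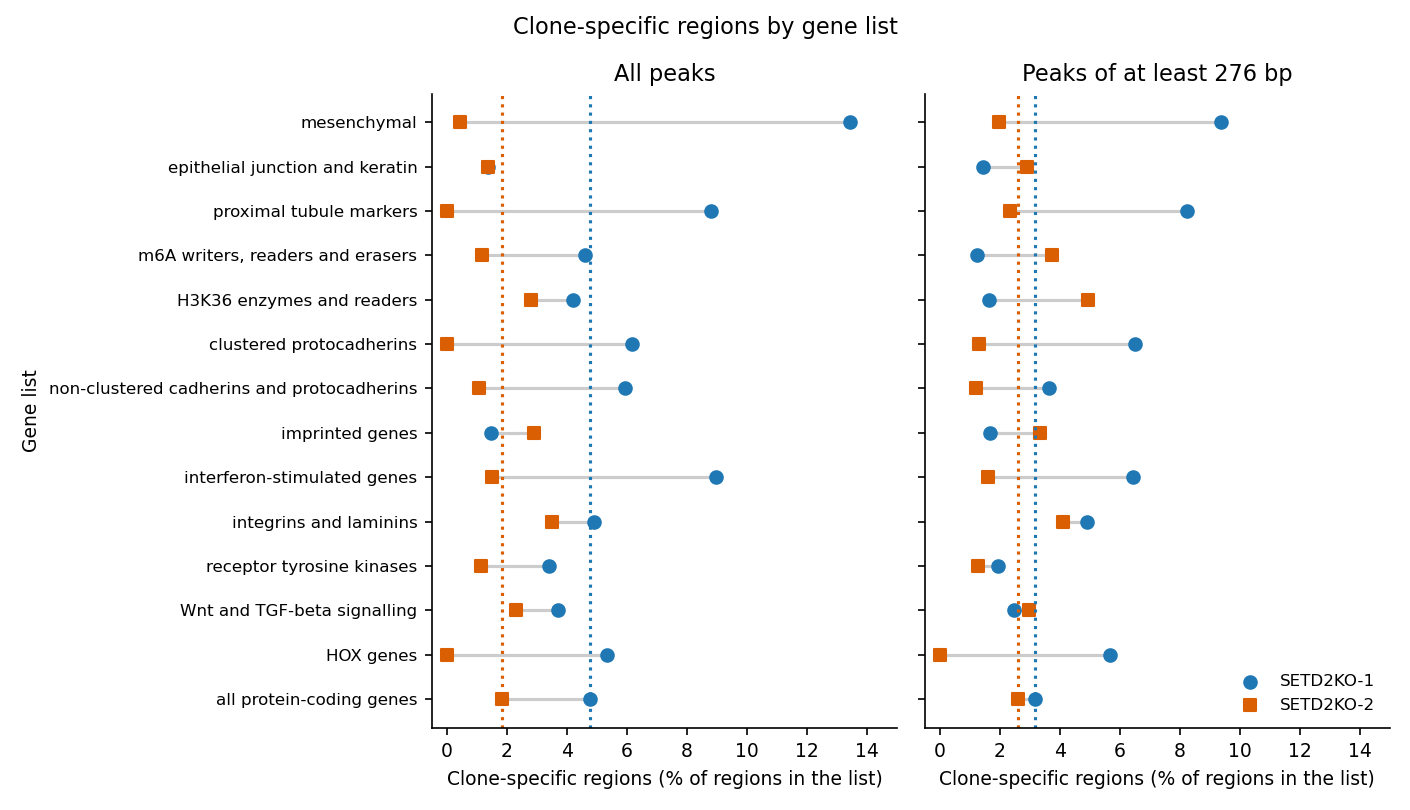
Percent of a list's merged regions that were specific to SETD2KO-1 (blue circles) or SETD2KO-2 (orange squares), for lists with at least 50 regions, with all peaks (left) and with peaks of at least 276 bp (right). Dotted lines mark the values over all protein-coding genes, and the mesenchymal list lies farthest right in both panels, at 13.4% and 9.36% for SETD2KO-1.

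Of 74 regions in the epithelial junction and keratin list, 1 was specific to each clone, and PKP2, a desmosomal plakophilin, had 1 and 1 peaks in SETD2KO-2, 0 in SETD2KO-1 and 3 and 3 in WT. Of 29 proximal tubule markers 11 had a peak, and 8 of their 91 regions were specific to SETD2KO-1 (8.79%, beside 4.75% over all protein-coding genes) and 0 to SETD2KO-2. The counts were 5 and 2 of 70 with equal list lengths and 7 and 2 of 85 with peaks of 276 bp or more. CDH6, a cadherin of the tubule, held 3 of them, with 11 and 11 peaks against 7 and 6. DPP4, a brush border peptidase, had 1 and 6 peaks in SETD2KO-1 and 0 in every other RPTEC library. PAX8, the kidney lineage factor, was called in all 8 libraries, with 9 and 18 peaks in SETD2KO-1 and 13 and 7 in SETD2KO-2. CDH6 and PAX8 are named after their values were seen. Markers of other nephron segments (3 of 20 with a peak) and of fibroblasts, endothelium and blood (4 of 15) gave 0 regions specific to SETD2KO-1, and PDGFRA, the platelet-derived growth factor receptor alpha, was called with 1 and 1 peaks in SETD2KO-2 alone. The labelled cell type thus rested on few called markers in either clone.

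FAS and CDKN2B were called in opposite clones. FAS, a death receptor, had 2 and 1 peaks in SETD2KO-2, 0 in SETD2KO-1, 1 and 1 in WT, and 0 and 1 in SETD2KO-1R. CDKN2B, a brake on the cell cycle, was at 0 in SETD2KO-2 instead, as given above. Both genes had at most 2 peaks in any RPTEC library, so a call in one clone alone rests on few peaks there.

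In the list of interferon-stimulated genes, 6 of 67 regions were specific to SETD2KO-1 (8.96%) and 1 to SETD2KO-2 (1.49%). IFIT1 and IFI44L each had 1 peak in both SETD2KO-1 libraries and 0 in SETD2KO-2, and IFI16, a DNA sensor, had 2 and 1 against 0. The integrin and laminin list had 7 and 5 specific regions of 143 (4.90% and 3.50%, beside 4.75% and 1.84% over all protein-coding genes), and ITGA11 held 4 of the 5. ITGA9, another integrin alpha chain, had 1 and 1 peaks in SETD2KO-1 alone and held 0 specific regions. Receptor tyrosine kinases had 6 and 2 of 176, and TYRO3 was called in SETD2KO-1 alone with 1 and 2 peaks. Wnt and TGF-beta signalling had 8 and 5 of 217. The last 3 lists had shares of 3.41% to 4.90% in SETD2KO-1, beside the 4.75% over all genes.

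HOX genes had 5 and 0 specific regions of 94, with HOXD1 at 1 and 1 peaks in SETD2KO-1 alone. The imprinted genes had 1 and 2 of 69, and L3MBTL1 and INPP5F had 1 and 1 peaks in SETD2KO-2 alone. The clustered protocadherins had 5 and 0 of 81 regions, counted in 19 genes because these genes share exons and overlap, so the peaks of single members cannot be separated. Counted over these overlapping gene bodies, their peaks numbered 447 and 466 in SETD2KO-1, 312 and 441 in SETD2KO-2, 59 and 69 in WT, and 211 and 255 in SETD2KO-1R. Both clones lay above all 4 libraries of the lines with SETD2. Other cadherins and protocadherins had 11 and 2 of 185, and the cancer-testis antigens 0 of 2. Each of these calls in one clone alone rests on single peaks.

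The m6A machinery and the H3K36 enzymes and readers lay near or below the share over all genes in SETD2KO-1. In the m6A list 4 of 87 regions were specific to SETD2KO-1 (4.60%) and 1 to SETD2KO-2 (1.15%). In the H3K36 list the counts were 6 and 4 of 143 (4.20% and 2.80%). With peaks of 276 bp or more the counts were 1 and 3 of 80 and 2 and 6 of 121, so the direction turned in both lists. No member of either list was called in one clone alone.

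The lines that the rule did not use gave a view of each clone's specific set. Of the SETD2KO-1 set, WT called 40.1% and 27.7% (Wilson 95% intervals 38.2% to 42.1% and 25.9% to 29.5%) and SETD2KO-1R called 49.0% and 44.3% (47.1% to 51.0% and 42.3% to 46.3%). Both libraries of the line that descends from SETD2KO-1 lay above both WT libraries, by 12.8 percentage points on average. The exact two-sided permutation test gave p = 0.333, the smallest value that 2 against 2 libraries allow. Of the SETD2KO-2 set, WT called 39.5% and 37.2% and SETD2KO-1R 32.1% and 42.6%, which overlapped (difference -1.01 points, exact p = 1). Common regions were called at 89.3% and 83.6% in WT and at 90.1% and 89.8% in SETD2KO-1R. Both SETD2KO-1R libraries thus lay above both WT libraries there too, by 3.50 points on average (exact permutation p = 0.333). The order was not particular to the SETD2KO-1 set.

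**Figure D5:**
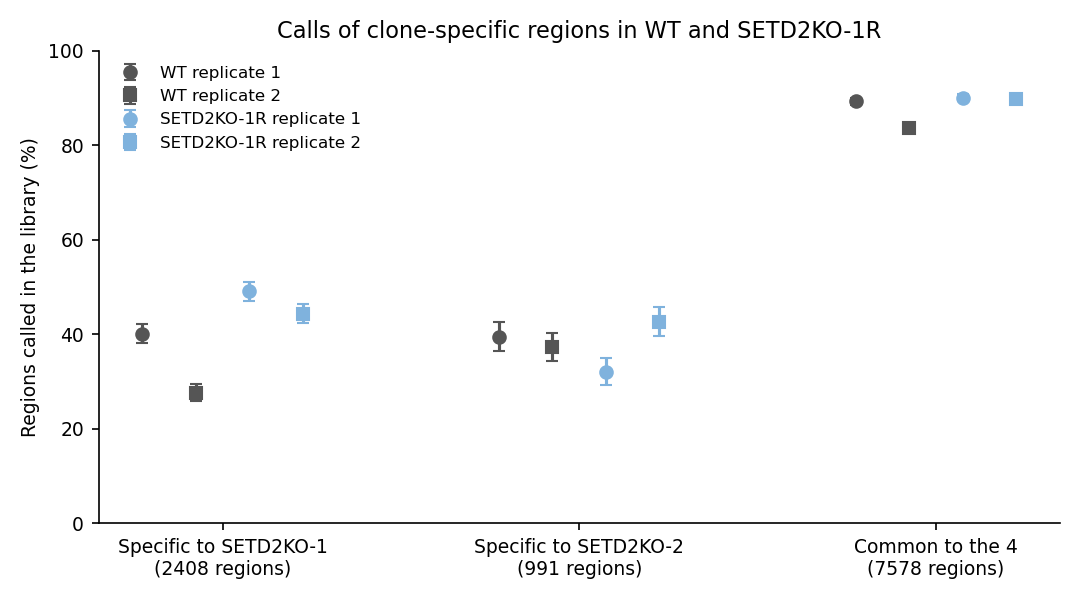
Percent of the 2408, 991 and 7578 regions (horizontal groups) called in each WT (grey) and SETD2KO-1R (light blue) library, circles for replicate 1 and squares for replicate 2, with Wilson 95% intervals for counting. SETD2KO-1R lies above WT for the SETD2KO-1 set and, by less, for the common regions, and overlaps it for the SETD2KO-2 set.

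The SETD2KO-1R lists were longer, with 29154 and 31207 peaks against 27238 and 23126 in WT. List length thus moved with the difference in the SETD2KO-1 set. That difference was 10.7 points with lists of equal length. Peaks under 276 bp were 25.8% and 18.6% of the SETD2KO-1R lists and 8.06% and 11.9% of the WT lists, so short peaks moved with it too. Without them the SETD2KO-1 set was called at 41.6% and 41.5% in SETD2KO-1R and at 40.7% and 27.1% in WT, a difference of 7.65 points. Of the SETD2KO-1 set 611 regions (25.4%), and of the SETD2KO-2 set 296 (29.9%), were called in neither WT nor SETD2KO-1R. Both WT and both SETD2KO-1R libraries called 230 (9.55%) and 65 (6.56%).

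Of the 380 genes called in SETD2KO-1 alone, 133 were called in both WT libraries and 122 in neither. Both SETD2KO-1R libraries called 179. Of the 160 genes of SETD2KO-2, 50 were called in both WT libraries, 64 in neither and 68 in both SETD2KO-1R libraries. COL5A1 was among 32 of the 380 genes called in both SETD2KO-1R libraries and in neither WT library. The same held for 12 of the 160 genes of SETD2KO-2, from which SETD2KO-1R does not descend. The pattern was therefore not particular to the SETD2KO-1 lineage. No other RPTEC library called 50 of the 380 genes, such as FBXL7, FILIP1 and DPP4, and 36 of the 160. FILIP1, a filamin-interacting protein named after its values were seen, had 7 and 3 peaks in SETD2KO-1 and 0 elsewhere, 786-O included.

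Labels do not say whether same-line libraries are separate cultures, so the p-values here measure a spread that may be technical. Where all 4 libraries called a region, the clones could be compared by score, on a log2 scale after quantile normalization. Of 7578 common regions, 0 were higher in SETD2KO-1 and 0 in SETD2KO-2 at a limma adjusted p of 0.05 (0% called each way), and 208 had an unadjusted p under 0.05. The correlation of normalized log2 scores across regions, which are not independent replicates, was 0.570 and 0.625 within clones and 0.555 to 0.716 across them. Again SETD2KO-1 replicate 2 and SETD2KO-2 replicate 1 were the closest pair. What 1 unit of score stands for is unknown, and a log2 difference of scores is not a fold change of m6A.

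The regions nearest to the threshold are given by their scores. DDX19A, an RNA helicase of mRNA export, had scores of 396 and 504 in SETD2KO-1 against 59 and 57 in SETD2KO-2 (log2 difference 2.81, SE 0.45, limma adjusted p = 0.731) at chr16:70371679-70372871. MYO9A, an unconventional myosin, had 298 and 387 against 60 and 49 (2.50, SE 0.46, adjusted p = 0.956). ZFP82, a zinc finger gene, had 163 and 131 against 44 and 33, and LOXL2, a collagen-crosslinking oxidase, had 153 and 136 against 34 and 39. An intergenic region of chromosome 9 had 353 and 728 against 138 and 39.

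In the other direction SMARCAL1, an annealing helicase, had scores of 39 and 34 in SETD2KO-1 against 147 and 184 in SETD2KO-2 (log2 difference -2.29, SE 0.51, limma adjusted p = 0.999). PRSS23, a serine protease, had 42 and 49 against 170 and 209, and NEK10, a ciliary kinase, 54 and 65 against 166 and 196. LRIG2-DT, a divergent transcript next to LRIG2, had 67 and 47 against 168 and 167. PDPR2P, a pseudogene with a near-identical copy, had 22 and 71 against 159 and 339 and is uncertain. All 10 regions missed the threshold in this fit, at a limma adjusted p of 0.731 or more. Their separation by clone follows from the choice of the smallest p values. With a replicate block DDX19A and PDPR2P passed (limma adjusted p = 0.0317 and 0.0356), though the replicate numbers did not pair the samples.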

How the data were processed

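The deposited data used here are 1 list of m6A peaks per IP library, each peak with a whole-number score whose scale is not stated and other values (summit position), which were not used. Per the study's methods the authors used STAR for alignment, HTSeq for counting and added E. coli RNA for scaling, and MACS2 called peaks against Input. The labels give hg38. The lists hold no reads, so depth per library is unknown, and p-values measure only the spread between libraries.

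Peaks of the 4 SETD2KO lists were merged when sharing at least 1 bp, and a library called a region or gene body by 1 bp of overlap. Genes were the 20037 protein-coding genes of RefSeq GRCh38.p14 without strand, so overlapping genes cannot be told apart. Strand for positions and start windows came from RefSeq promoter entries (15843 genes). Within a list, scores were ranked to percentiles. Scores in common regions, and log2(peaks + 1) per chromosome or window of 10 Mb with at least 40 peaks relative to the total, were fitted with limma 3.58.1 (R 4.3.3) and adjusted by Benjamini-Hochberg. Overlaps were computed in pandas 2.3.3 and NumPy 2.4.6 under Python 3.11.15, permutation tests in SciPy 1.17.1 and figures in Matplotlib 3.10.9. Region calling and the limma fits were tested on simulated data.

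Named were, per clone, the 8 top-ranked specific regions (1 per protein-coding gene), the 6 genes with most specific regions, list members called in one clone alone (at most 4 per list), 5 common regions per direction by limma p, 4 genes with regions of both clones, and SETD2, METTL3, MAL and POU2F2. The members and gene lists were chosen with earlier results of these data known. Alternatives were the upper 50% of each list, equal list lengths, merging within 100 bp, 50% coverage, other scalings and samples, each library left out and a replicate block. The shortest-peak limit and crossed pairing were chosen after seeing the data. Some named items and 1 gene list are not reported here.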

Additional observations from a re-analysis of the deposited data

How the results depend on the processing

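Merging within 100 bp kept all the counts within 1.5 times, and the difference of the within-clone from the between-clone Jaccard mean stayed below 0 with the upper 50% of peaks and with equal list lengths. With the upper 50% of each list by score, specific regions numbered 1141 (SETD2KO-1) and 469 (SETD2KO-2) and common regions 3395. Equal list lengths gave 1366 regions of SETD2KO-1 and 252 genes of SETD2KO-2. Covering at least 50% of the region gave 4691 common regions. Dropping peaks under 276 bp gave 1444 regions of SETD2KO-1 and 234 and 248 genes. Of the 380 and 160 genes, 206 and 104 remained with equal list lengths and 127 and 35 with the upper 50%.

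With each library left out in turn, regions specific to SETD2KO-1 numbered 3401 to 11440 and those of SETD2KO-2 2046 to 6565, since 1 library then decides a clone. Each omission moved these counts and those of genes by over 1.5 times, except that regions of SETD2KO-1 without SETD2KO-2 replicate 2 did not. Genes called in one clone alone numbered 665 to 1443 and 356 to 572. The difference of SETD2KO-1R from WT stayed above 0 for the SETD2KO-1 set, at 6.21 to 13.4 points. For the SETD2KO-2 set it ran from -3.64 to 6.63, and it turned to 6.63 without SETD2KO-1 replicate 2 and to 5.26 without SETD2KO-2 replicate 2. The window count was 0 or 1.

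The called window was lost (count 0) with the upper 50%, with equal list lengths and with a pseudocount of 5, and in the first 2 it held too few peaks to be tested. Same-numbered libraries deviated in opposite ways (correlation -0.21 in common region scores, -0.73 over chromosomes, -0.47 over windows), so the numbers did not pair the samples. With a replicate block 3 common regions passed (2 higher in SETD2KO-1 and 1 in SETD2KO-2, DDX19A and PDPR2P among them), 0 chromosomes and 1 window, and the specific counts stayed 2408 and 991 by construction. With crossed pairing, added after seeing the data, 0, 0 and 3 passed. Depth is unknown, so regions of 1 library cannot be separated from regions under the threshold.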
